A study of Daphnia magna with 3 samples.

Results

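The solute carriers and sugar transporters of Daphnia magna, a water flea that filters algae from ponds, were described in well-fed wild-type adults. Gene records were taken as carriers where their description named a solute carrier, a sugar, glucose, trehalose, monocarboxylate or amino acid transporter, or a sodium-coupled carrier, with fatty acid transport left out, and the citrate transporter gene INDY was added by its position. This gave 180 of the 47109 records in the table, and 17265 records carried a description at all. RNA was sequenced from whole bodies in 3 libraries, which form a single group, so that no treatment or genotype was compared here. Each library held 5 pooled NIES-strain females aged 12 days, at the release of the second clutch, fed daily with algae in ADaM medium, with the eggs flushed from the brood chamber before freezing. The study set these libraries beside starved and DNMT3.1-mutant animals, which were not analysed here. Whether the libraries came from separate cultures on separate days is not stated sample by sample, and the spread between them may be partly technical.

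Solute carriers are membrane proteins that move small molecules across the plasma membrane or the membranes of organelles without splitting ATP. Facilitators such as the glucose and trehalose carriers let their substrate run down its gradient, symporters pull it in together with sodium or protons, and exchangers swap one molecule for another. In insects, trehalose made from glucose is the main sugar of the hemolymph, and in animals amino acids from digested food are taken up across the gut epithelium. INDY, named in Drosophila, carries citrate and related dicarboxylates over the plasma membrane without sodium.

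The records carried 96 distinct descriptions under 157 gene numbers. Of the carriers, 46 were parts of gene models that the annotation had split, and in 6 gene numbers the parts lay on separate scaffolds. They lay on 67 scaffolds and contigs, and 136 of them (75.6%) overlapped another record, against 74.0% of all records and 68.3% of described ones. With overlapping carriers joined, 136 separate loci remained. An overlap on the same strand was found for 116 records and on the opposite strand for 87. The strand setting of the counting is not given in the sources used here, so that reads of such pairs could be divided between them, and their single values are uncertain. Among the carriers with a process term of the gene ontology, 65 of 165 (39.4%) had the term transmembrane transport, against 2.79% of described records. The term carbohydrate transmembrane transport was held by 35 described records, of which 34 were carriers. These terms come from the same annotation as the descriptions and do not check them independently.

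Gene records received 8843488, 8679171 and 9092389 counts in replicates 1, 2 and 3, and the carriers took 24313, 25819 and 27628 of them. Carriers were detected in all libraries for 146 records, against 42.3% of all records and 65.5% of described ones. In 17 records counts were found in only 1 or 2 libraries, and 17 had none. All 17 records without counts overlapped another record, and 11 of them were parts of split models. For such records the limit of detection, set at 3 counts, corresponded to 0.354, 0.353 and 0.309 CPM (counts scaled to the library size) in replicates 1, 2 and 3, and it covers counting error only. The level of 142 carriers was at least 1 CPM, of 78 at least 10 CPM and of 3 at least 100 CPM. Of all 47109 records, 15816 reached 1 CPM and 8976 reached 10 CPM. Of the 17265 described records it was 10267 and 6824.

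To compare levels between genes, the deposited TPM, which is scaled to record length and library size, was used, given as the mean ± SD of the 3 libraries. The carriers together held 1711, 1809 and 1818 TPM in replicates 1, 2 and 3, or 0.171% to 0.182% of the total. Of the carriers' TPM, 30.7%, 32.7% and 31.8% came from the 10 leading carriers. Among records detected in all libraries, the median was 7.37 ± 0.74 TPM for carriers. It was 6.20 ± 0.16 TPM for all records and 10.8 ± 0.22 TPM for described ones. These medians cover unlike shares of each set, 81.1% of carriers, 42.3% of all records and 65.5% of described ones. They therefore do not rank a typical carrier against a typical described gene. In bulk RNA of whole bodies, fewer cells that use a carrier cannot be told apart from less of its RNA per cell.

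**Figure D1:**
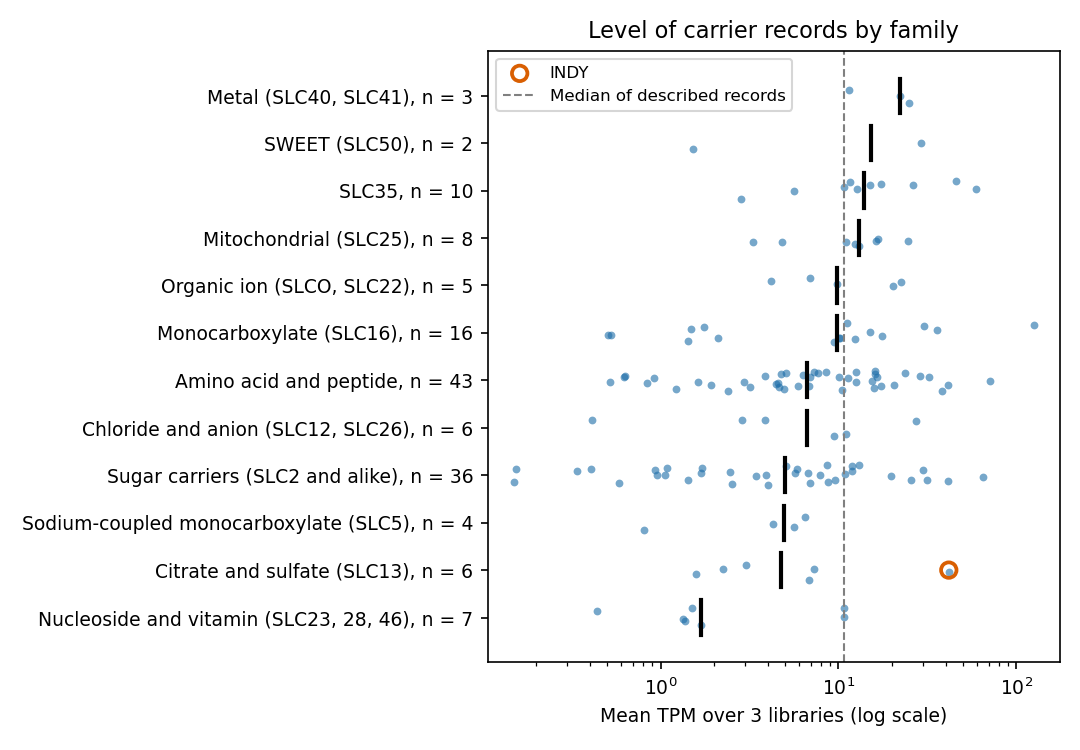
Level of each carrier record detected in all libraries, by family, as mean TPM over 3 libraries on a log scale. Points are records, black bars family medians, the dashed line the median of described records (10.8 TPM), and n the records shown. The metal, SWEET, SLC35 and mitochondrial medians lie to the right of the line, and the sugar carriers spread over more than 2 orders of magnitude.

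Families here held only records within the rule, and related transporters described by other words were left out. The amino acid and peptide carriers had the highest summed level, at 512 ± 25.4 TPM over 54 records. The sugar carriers followed at 353 ± 28.4 TPM over 48 records and the monocarboxylate carriers at 285 ± 8.75 TPM over 17. The carriers of the SLC35 family, many of which bring nucleotide sugars into the endoplasmic reticulum and Golgi, summed to 207 ± 11.4 TPM from 10 records. The mitochondrial SLC25 family reached 102 ± 13.2 TPM. These families kept their order in each library. The next sums were those of the organic ion carriers (66.5 ± 9.76 TPM) and SLC13 (62.7 ± 26.3 TPM). The metal carriers (58.5 ± 1.41 TPM) and the chloride and anion carriers (54.8 ± 6.34 TPM) followed. The ranges of these families over the libraries overlapped. Organic ion carriers lay above the chloride and anion carriers in each library, while the other pairs changed order between libraries. The SWEET carriers (30.4 ± 8.19 TPM), the nucleoside and vitamin carriers (28.2 ± 3.50 TPM) and the sodium-coupled monocarboxylate carriers (18.7 ± 2.27 TPM) were lowest. By the median over records detected in all libraries the order was another one. The metal carriers (22.2 ± 2.27 TPM), the 2 SWEET records (15.2 ± 4.09 TPM) and SLC35 (13.8 ± 1.83 TPM) were highest. The sugar carriers (4.99 ± 0.80 TPM) lay near the sodium-coupled monocarboxylate carriers (4.97 ± 1.43 TPM) and SLC13 (4.76 ± 0.68 TPM). Nucleoside and vitamin carriers were lowest (1.68 ± 0.24 TPM).

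The most abundant carrier was a record described as monocarboxylate transporter 3 (Dapma7bEVm010125sc00084Split01, scaffold00084, 728762 to 734302, minus strand). In mammals this type of carrier moves lactate and pyruvate together with protons. It had 131, 128 and 116 TPM in replicates 1, 2 and 3, and its lowest library lay above the highest library of every other carrier. The excitatory amino acid transporter 1-like record (EAAT1-like, scaffold02279), a sodium-driven glutamate carrier in animals, followed with 65.0, 78.5 and 69.8 TPM. The GLUT1-like glucose facilitator (scaffold01151) had 56.6, 66.7 and 71.1 TPM, and SLC35B1, an adenine nucleotide exchanger of the endoplasmic reticulum in mammals, had 61.7, 55.4 and 60.4 TPM. GLUT1-like overlapped both others in its range, while the lowest library of EAAT1-like lay above the highest of SLC35B1. SLC35F6 stood below them at 46.2, 46.5 and 45.4 TPM, with nearly the same value in each library.

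**Figure D2:**
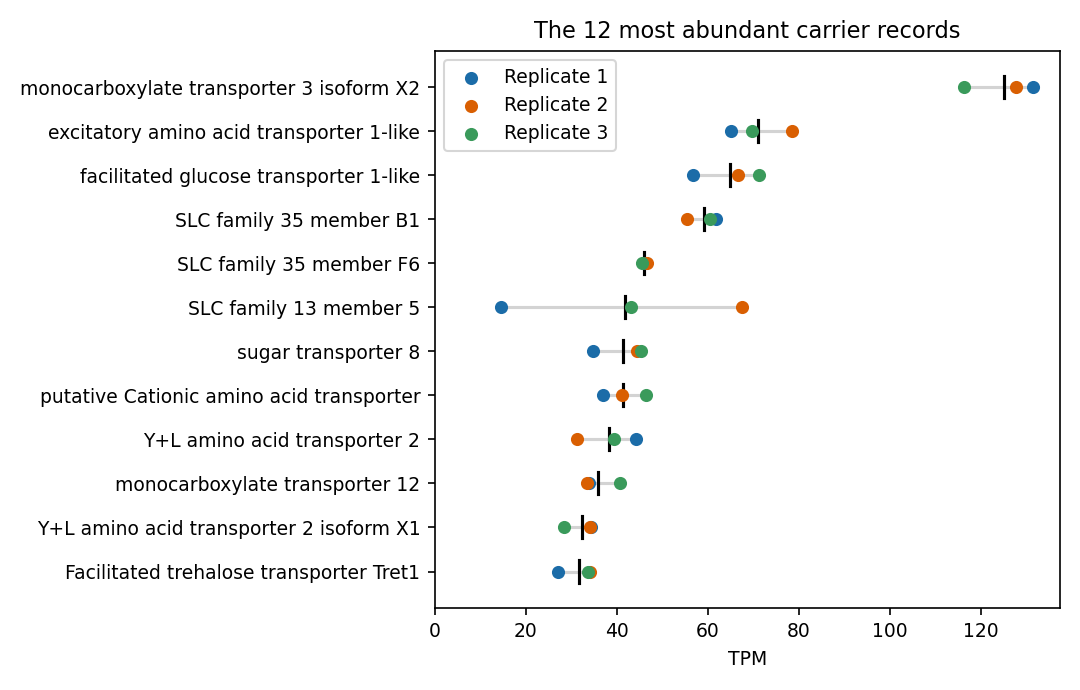
TPM of the 12 most abundant carrier records in each of the 3 libraries, with black bars for the mean and grey lines for the range. Monocarboxylate transporter 3 lies at 116 to 131 TPM, above the other records in all libraries, and SLC13A5 (INDY) has by far the widest range, 14.5 to 67.4 TPM.

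The sugar carriers were mostly facilitators of the SLC2 type, with a few records described by other names, among them a sodium-dependent glucose transporter and a proton-associated sugar transporter. Of these 48 records, 36 were detected in all libraries and 8 in none. After GLUT1-like (64.8 ± 7.41 TPM), the record described as sugar transporter 8 (scaffold02101) was the most abundant, with 34.8, 44.3 and 45.2 TPM and the lowest value in replicate 1. A total of 32 records were described as Tret1, the facilitated trehalose transporter that in insects lets trehalose leave the fat body. Of these 32, 23 were detected in all libraries, against 42.3% of all records and 65.5% of described ones. A level of 10 CPM was reached by 8, against 8976 of all 47109 records and 6824 of 17265 described ones. The Tret1-2 homolog on scaffold01036 (630835 to 633453, plus strand) had 231, 106 and 186 counts, lowest in replicate 2. A Tret1 record on scaffold01663 (2401 to 4367, plus strand) had 84, 164 and 204 counts, lowest in replicate 1. Both overlapped no other record and spanned 2.19-fold and 2.12-fold in CPM. Of the SWEET1 records, sugar channels that let sugars pass in both directions, the first (scaffold02372, minus strand) had 20.5, 31.4 and 34.8 TPM and the second 0.744, 1.59 and 2.24 TPM, both lowest in replicate 1.

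The amino acid carriers were led by EAAT1-like and by a cationic amino acid transporter on scaffold01581 (41.4 ± 4.77 TPM), a type that imports arginine and lysine. It had 36.8, 41.1 and 46.3 TPM in replicates 1, 2 and 3. The y+LAT2 carriers exchange cationic for neutral amino acids, and their most abundant record (scaffold01764) had 44.1, 31.1 and 39.3 TPM. Another y+LAT2 record (scaffold02994) was the steadiest of all carriers at 10 CPM or more, with 236, 231 and 273 counts and a 1.03-fold range in CPM. The high affinity carrier CAT1 (162, 176 and 207 counts) and SLC15A4-like, which in mammals carries peptides and histidine out of endolysosomes (222, 250 and 258 counts), both had a range of 1.12-fold. These last 3 carriers were named for their narrow range. That they did not vary beyond counting noise is therefore no independent sign of steadiness.

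In the monocarboxylate family, MCT12 on scaffold00872 (35.9 ± 4.12 TPM) came after monocarboxylate transporter 3, at 33.8, 33.3 and 40.7 TPM. MCT12 carries creatine in mammals. The MCT9-like record (scaffold00915, 315091 to 319449, plus strand) had 131, 347 and 230 counts, a 2.64-fold range with replicate 1 lowest. It overlapped a copper ATPase record on the opposite strand with 581, 864 and 826 counts, which was also lowest in replicate 1. Of the 6 sodium-coupled monocarboxylate carriers, relatives of the carriers that take up lactate and short fatty acids in mammals, the first (scaffold00024) had 7.27, 6.32 and 5.95 TPM and the next (scaffold02167) 5.12, 6.25 and 5.57 TPM. Neither varied beyond counting noise.

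Carriers of organelles differed among themselves in their spread. SLC25A46-like, a mitochondrial outer membrane protein that acts in mitochondrial shape in animals, had 16.3 TPM in each library, and its counts were 211, 213 and 231. SLC35F6 (1.08-fold), SLC35B1 (1.11-fold) and SLC35E1 (1.12-fold) also had small ranges in CPM. These 3 and SLC25A46-like were among the carriers picked for the narrowest range, so that this is no independent sign of steadiness. Of the 10 SLC35 records, 3 varied beyond counting noise, against 54.5% of all tested records. Within the rule, the most abundant mitochondrial carriers were SLC25A40-like and SLC25A35. SLC25A40-like, which imports glutathione into mammalian mitochondria, had 26.9, 19.2 and 27.1 TPM, and SLC25A35 had 17.3, 13.1 and 19.4 TPM. Both were lowest in replicate 2, and 4 of the 8 tested SLC25 records varied. SLC25A38, a glycine carrier needed for heme synthesis in animals, was annotated as overlapping records on scaffold01361, of which the longer had 58, 107 and 169 counts, a 2.54-fold range, and the shorter 42, 37 and 45.

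The metal carriers within the rule were 3 records. The SLC41A1 records, which carry magnesium in mammals, overlapped each other on opposite strands of scaffold00944 and had 367, 355 and 416 counts (minus strand) and 394, 335 and 358 counts (plus strand). SLC40A1 (ferroportin), the iron exporter of animals, had 10.3, 12.3 and 11.7 TPM. Neither ferroportin nor the SLC41A1 record on the minus strand varied beyond counting noise. That SLC41A1 record was also among the carriers picked for the narrowest range, so that its steadiness is not independent. The organic anion carriers SLCO3A1 (21.7, 28.7 and 16.7 TPM) and SLCO5A1 (22.7, 20.3 and 17.9 TPM) led the organic ion family, in which 5 of 6 tested records varied, against 54.5% of all. SLCO3A1 was highest in replicate 2, while SLCO5A1 was highest in replicate 1. SLC12A8, of the cation-chloride cotransporter family, had 31.1, 25.8 and 24.5 TPM, and SLC26A10-like, of an anion exchanger family, followed at 215, 240 and 210 counts. The nucleoside carrier SLC28A3-like (scaffold01151) had 12.1, 8.65 and 11.4 TPM, and SLC46A3-like 9.60, 10.2 and 12.4 TPM. Both lay above every other nucleoside and vitamin record within the rule in each library.

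The SLC13 family, citrate and sulfate carriers, held 6 records, all detected in all libraries. INDY (Dapma7bEVm010715sc02902NoSplit, scaffold02902, 61205 to 65362, minus strand, described as SLC13A5) received 215, 1003 and 695 counts in replicates 1, 2 and 3. By TPM it ranked 40th, 3rd and 8th among the carriers in these libraries, at 14.5, 67.4 and 43.1 TPM, so that its place depended on the library. In each library it was the most abundant SLC13 record by TPM. Its mean of 41.7 ± 26.5 TPM lay at percentile 85.9 of the records detected in all libraries. The summed SLC13 level, 35.4, 87.7 and 65.1 TPM, moved with it.

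The other SLC13 records did not share this pattern. SLC13A4 on scaffold00512, whose mammalian counterpart carries sulfate, had 130, 64 and 144 counts, lowest in replicate 2, with a 2.04-fold range in CPM. A further SLC13A4 record on scaffold00115 had 96, 112 and 126 counts and did not vary beyond counting noise. The split SLC13A4 model on the same scaffold had 43, 41 and 63 counts in its larger part and 4, 12 and 3 in its smaller one, and SLC13A5-like had 24, 28 and 15. INDY alone among the SLC13 records at 10 CPM or more was lowest in replicate 1 by 2-fold or more.

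**Figure D3:**
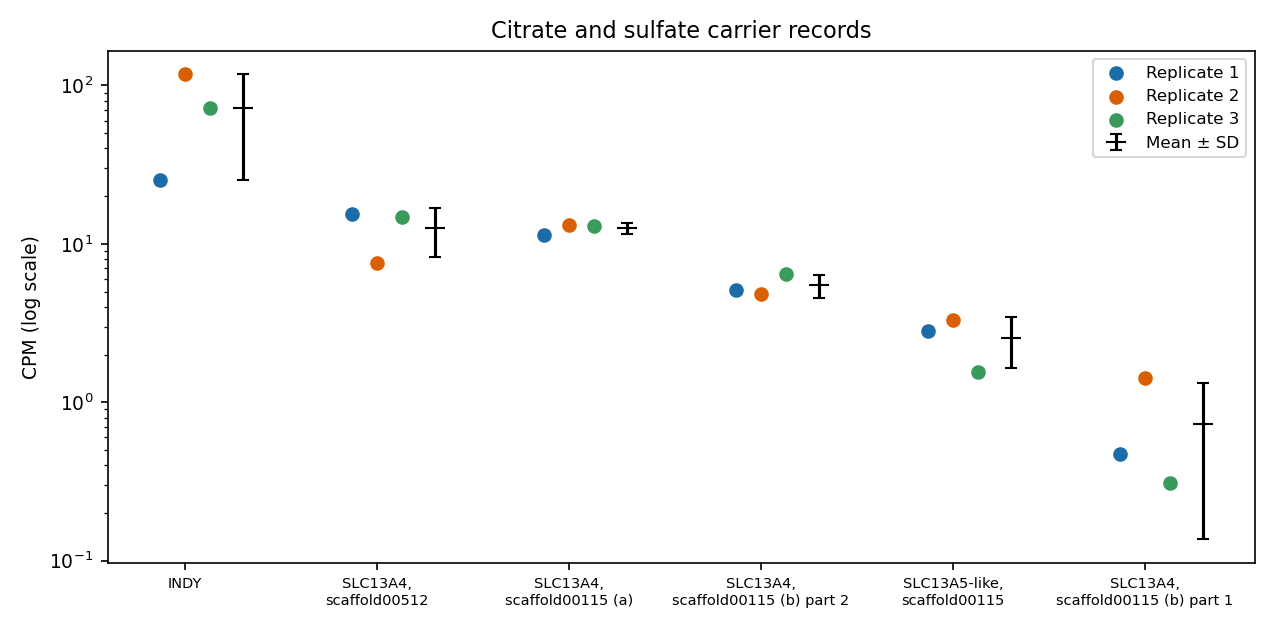
CPM of the 6 SLC13 records in each library on a log scale, with black crosses and bars for the mean ± SD. INDY lies at 25.4 to 118 CPM with replicate 1 lowest, whereas SLC13A4 on scaffold00512 is lowest in replicate 2; a and b tell apart the SLC13A4 models on scaffold00115.

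The surroundings of INDY were examined because its record overlaps others. An undescribed record on the same strand covered its whole length and had 138, 164 and 175 counts, and one on the opposite strand had 11, 19 and 4. Within 20 kb, 9 other records reached 10 CPM, with ranges of 1.18-fold to 2.04-fold. Of these 9, 5 were lower in replicate 1 than in the mean of the others. This is near the background, as 51.8% of all records of at least 1 CPM were higher in replicate 1. The widest of the 9 was the adjacent UDP-glucuronosyltransferase record, with 30.2, 61.6 and 42.0 CPM, in the same order of libraries as INDY. None of these 9 had the 4.65-fold range of INDY.

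To find which carriers varied between libraries by more than counting noise, a chi-square test of equal CPM in all libraries was applied to the counts, with Benjamini-Hochberg adjustment over all records. Of the 139 carriers with a mean count of at least 10, 75 varied, or 54.0%, against 54.5% of all tested records and 56.2% of the described ones, so that carriers were near the background. Leaving out replicate 1 lowered this count to 36 of 139 carriers (25.9%), against 29.0% of all records. The median biological coefficient of variation of carriers was 0.27, against 0.26 for all records and 0.24 for described ones. The median range between the highest and lowest library, among records of at least 10 CPM, was 1.32-fold for carriers and 1.34-fold for all records. Of the 78 carriers at this level, 59 stayed within 1.5-fold. The median of all records also lay below 1.5-fold, and their share within it was not counted.

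A library was at least 2-fold apart from both others in 4 of these 78 carriers (5.13%), against 4.19% of all records. Replicate 1 was the low library in 3 of them (3.85%, against 2.33% of all records), and replicate 2 in 1 (against 0.301%). No carrier had replicate 3 low (against 1.08% of all records) or had replicate 1, 2 or 3 high (against 0.357%, 0.368% and 0.156%). The 3 carriers with replicate 1 low were INDY, a cationic amino acid transporter (Dapma7bEVm004852sc02081NoSplit, scaffold02081, 70935 to 72855, minus strand) and a sodium-dependent nutrient amino acid transporter 1-like record (Dapma7bEVm002214sc01348NoSplit, scaffold01348, 776551 to 780135, minus strand). The first of these amino acid carriers had 52, 262 and 182 counts, a 5.02-fold range that exceeded that of INDY. The second belongs to the family that takes up essential amino acids in insects and had 70, 192 and 180 counts, a 2.73-fold range. Both overlapped other records.

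In the remaining record, a nutrient amino acid transporter 1-like gene (Dapma7bEVm001803sc00781NoSplit, scaffold00781, 568109 to 571327, plus strand), replicate 2 was low. It had 169, 50 and 127 counts, a 3.39-fold range, and overlapped no other record. The other 3 nutrient amino acid transporter 1-like records of at least 1 CPM were lowest in replicate 1. Their deviations there were -0.22, -0.27 and -0.27 on the log2 scale against the mean of the other libraries. Only the record on scaffold01036 among these 3 varied beyond counting noise. A cationic amino acid transporter on scaffold03258 was lowest in replicate 1 in both parts of its split model, though less than 2-fold below the nearer library, with 114, 253 and 258 counts in one part and 19, 41 and 37 in the other.

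**Figure D4:**
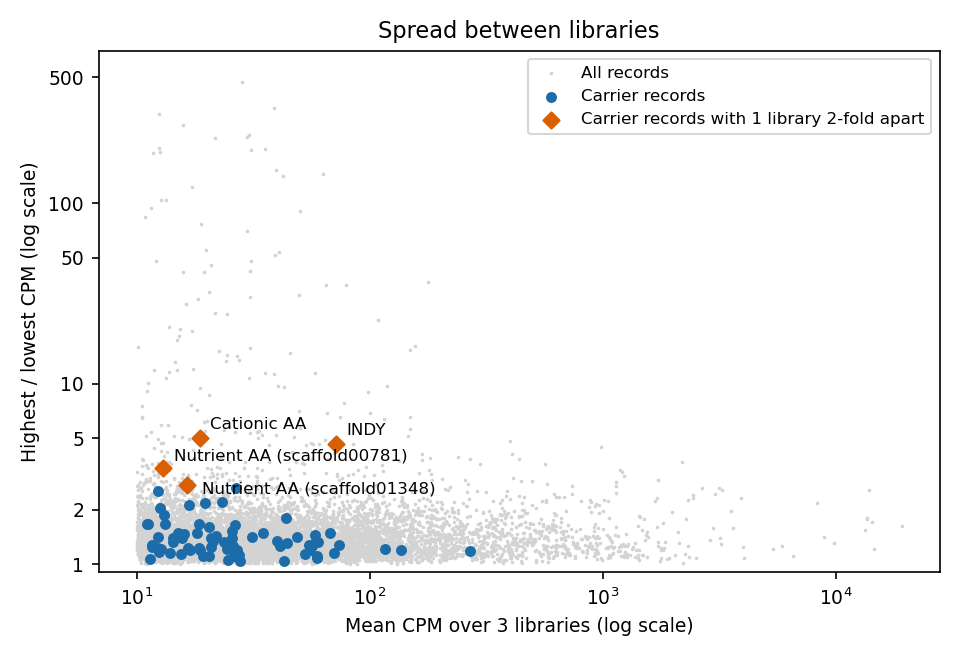
Ratio of the highest to the lowest library in CPM against the mean CPM, both on log scales, for records with a mean of at least 10 CPM and a count in every library. Grey points are all records, blue points carriers, and orange diamonds the 4 carriers with 1 library at least 2-fold apart, at 2.73-fold to 5.02-fold. Most carriers lie below 1.5-fold, as do most of all records, whose median was 1.34-fold.

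The deviation of a library was taken as its log2(CPM + 0.5) minus the mean of the other libraries, so that 0 means no shift. Over the 142 carriers of at least 1 CPM, the median deviation was -0.01, 0.07 and 0.06 on the log2 scale in replicates 1, 2 and 3, against 0.02, 0.01 and 0.02 for all records. The sugar carriers had a larger shift, with medians of -0.25, 0.18 and 0.18. In replicate 1, 10 of 33 of them lay above 0, against 51.8% of all records, and in replicates 2 and 3 it was 23 and 24 of 33, against 51.0% and 51.7%. At a mean of 10 CPM or more the shifts were smaller, -0.12, 0.03 and 0.10 on the log2 scale over 14 records, with 5, 8 and 10 above 0. The amino acid carriers had medians of -0.10, 0.16 and 0.02, and the SLC35 carriers 0.08, -0.08 and 0.04, of which the first turned to -0.01 with scaling to library totals. The 6 chloride and anion carriers had 0.29, 0.07 and -0.29, with 5 of them above 0 in replicate 1 and 1 in replicate 3.

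Other gene lists also differed between the libraries. The epidermis and cuticle list had a median deviation of -0.48, 0.31 and 0.27 on the log2 scale, with 8 of its 30 records of at least 10 CPM low in replicate 1 by 2-fold or more. Of its 358 records, 112 were detected in all libraries and 172 in none, and its summed level was 9164, 14000 and 13495 TPM. The yolk list had medians of 0.14, 0.60 and -0.60 with 72290, 84832 and 44415 TPM, and 21 of its 24 records were detected in all libraries. The gut list, with 112 of 169 records detected in all libraries, had medians of -0.11, 0.01 and 0.07 and summed levels of 18270, 19012 and 20270 TPM. The germline list (10 of 11 detected in all libraries) had medians of 0.38, -0.14 and -0.25, with 8 of 9 records above 0 in replicate 1 and sums of 325, 257 and 255 TPM. The muscle list (21 of 27) had medians of 0.01, 0.16 and -0.26 and sums of 1870, 1791 and 1723 TPM, with 4 of 15 records low in replicate 3 by 2-fold or more. The eye list (34 of 61) had medians of -0.16, 0.11 and 0.05 and sums of 771, 930 and 825 TPM, and the nervous system list (23 of 31) -0.12, 0.19 and 0.00 and 240, 253 and 250 TPM. The part of these lists in the carriers' values was not tested.

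Runs of at least 3 carrier records with neighbours within 50 kb made up 14 arrays with 72 of the 180 records. Of these arrays, 8 held 3 or more separate loci, 3 held 2, and 3 were a single locus of overlapping or split records. The largest, on scaffold00084 (701391 to 754948), held 13 records of monocarboxylate and sugar carriers within 53.6 kb, in 9 loci. Its levels ran from no count to 125 TPM, and 3 of its records reached 10 CPM. These were monocarboxylate transporter 3, an MCT12 record with 165, 153 and 193 counts, and a Tret1 record with 418, 528 and 566 counts. One array thus held both the most abundant carrier and an MCT12 record of 0.504 ± 0.05 TPM.

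The array of Tret1 records on scaffold01581 (2430901 to 2545192) held 11 records in 114 kb, of which 5 were detected in all libraries, 4 in none and 0 reached 10 CPM. Its most abundant record had 39, 87 and 104 counts, or 5.07 ± 2.09 TPM. All 11 records together received 103, 165 and 222 counts, lowest in replicate 1. On scaffold00446, 6 records of b(0,+)-type amino acid transporters, which exchange cystine and cationic for neutral amino acids in mammals, lay within 11.7 kb, and 2 were detected in all libraries. The leading one had 67, 76 and 50 counts. On scaffold01937, 5 proton-coupled amino acid transporters lay within 10.3 kb, led by a CG1139 record with 143, 108 and 128 counts, and 1 of the 5, described as pathetic, had 96, 117 and 127. Near-identical copies within arrays could have shared reads, and their single values are uncertain.

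**Figure D5:**
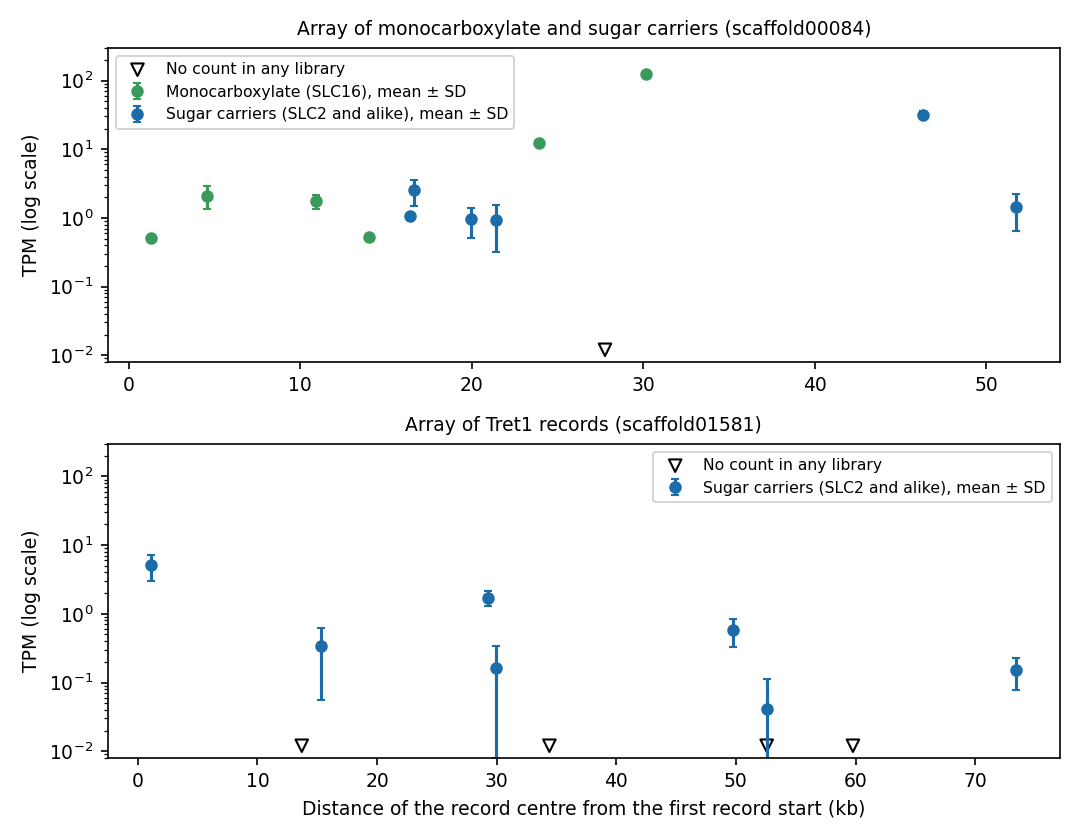
TPM (mean ± SD of 3 libraries, log scale) of the carrier records in 2 arrays against the distance of their centre from the start of the array in kb. The upper array holds the most abundant carrier, at 125 TPM, among records of 0.504 to 31.6 TPM, and the lower array stays at or below 5.07 TPM; open triangles mark records without counts.

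In 7 records counts were found in 1 library only, and 4 of these had more than 3 counts; these records were picked after their values were seen. A sodium-coupled neutral amino acid transporter 9-like record on scaffold00725 (SNAT9-like, 787551 to 790027, plus strand), related to a lysosomal arginine sensor of mammals, had 106, 0 and 0 counts. It lay inside the record of the same description on the opposite strand, which had 154, 222 and 209 counts, and the locus as a whole had 260, 222 and 209. The opposite-strand record alone and the locus sum were thus lowest in different libraries, replicates 1 and 3 by count. A sodium-coupled monocarboxylate carrier on scaffold00340 had 0, 0 and 24 counts inside a record on the same strand with 638, 538 and 487 counts. A sodium-dependent glucose transporter record on the plus strand of scaffold01361 had 0, 0 and 17 counts and overlapped a record of the same description on the minus strand with 679, 576 and 525 counts. The last, part of a gastric caeca sugar transporter, had 0, 0 and 4 counts.

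Transport genes outside the rule were set beside the carriers. A list of 148 other transporter records had a median of 10.3 ± 0.999 TPM over the 131 detected in all libraries, and 52 of 121 tested records varied (43.0%, against 54.5% of all tested records). Its most abundant record, the mitochondrial 2-oxoglutarate/malate carrier, had 149, 177 and 186 TPM. It so exceeded monocarboxylate transporter 3 and every mitochondrial carrier within the rule. Equilibrative nucleoside transporter 1, at 84.0, 99.4 and 106 TPM, lay above the nucleoside carriers within it. Zinc transporters Slc39a7-like (115 ± 25.5 TPM) and 7 (94.3 ± 9.49 TPM) lay above the metal carriers within it. Family sums and leaders given above thus hold within the rule only. Among 13 records of enzymes that make or use trehalose and citrate, 12 were detected in all libraries and 9 of 10 tested records varied, against 54.5% of all. Citrate synthase, which makes citrate in mitochondria, reached 194 ± 19.9 TPM, ATP-citrate synthase, which splits citrate in the cytosol, 42.7 ± 6.80 TPM, and trehalose-phosphate synthase, which starts trehalose synthesis, 79.8 ± 6.37 TPM in its leading record. The leading trehalase records, which split trehalose to glucose, had 19.1 ± 3.63 and 19.0 ± 3.93 TPM.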

How the data were processed

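The authors mapped paired-end reads with CLC Genomics Workbench 12 to the wFleaBase genome of D. magna and deposited total counts per gene record. The genome version is not given in the sources used here, nor is the strand setting. TPM values were deposited with an equal sum per library. Neither the deposited RPKM values nor the deposited signal headed CPM entered the results. That signal had no common sum over the libraries. In each library its sum equalled, to the digits kept, that of the CPM computed here from the counts. Descriptions and ontology terms were added by the authors with Blast2GO. Columns of per-sample values without a matching label numbered 0.

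Effective library sizes were computed with TMM (trimmed mean of M-values) in edgeR 4.0.16 (R 4.3.3), and CPM here is counts scaled with these sizes. The biological coefficient of variation came from an intercept-only edgeR model of records with at least 1 CPM. Every record whose counts averaged 10 or more entered a chi-square test, which was checked on simulated counts, and p-values were adjusted by Benjamini-Hochberg at 0.05. DESeq2 1.42.0 size factors were an alternative. Tables and plots were made in Python 3.11.15 with pandas 2.3.3, numpy 2.4.6, matplotlib 3.10.9 and scipy 1.17.1. Coordinates are those of the deposited table, whose build was not matched to another assembly. No sequences were used here.

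Families and comparison lists were set by words in the descriptions. The carriers, the families and the lists were chosen with earlier results of these data known. Named genes were INDY, all SLC13 records, the 2 most abundant records of each of the 12 families, the 10 carriers with the widest and the 10 with the narrowest range at 10 CPM or more, and the most abundant record of each array. Others are named where a count turned on them, after their values were seen.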

Additional observations from a re-analysis of the deposited data

How the results depend on the processing

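With library totals in place of TMM, the carriers' median deviations were -0.10, 0.025 and 0.20 on the log2 scale in replicates 1, 2 and 3, while those of all records were -0.07, -0.04 and 0.15. In records that overlap no other record, the deviation in replicate 3 was 0.015, 19 of 39 carriers varied beyond counting noise (48.7%, against 50.1% of all records), and 1 carrier had a library 2-fold apart; fewer records were tested there. Leaving out each library in turn gave 36 to 56 varying carriers. A library was apart in 13 of 78 carriers at 1.5-fold (16.7%, against 16.9% of all records), and in 24 of 142 with a mean of at least 1 CPM (16.9%, against 12.7%). The median level was 11.2 on the CPM scale and 4.72 TPM with every carrier included, against 7.37 TPM. Without 1 library, INDY stood at 48.5 to 94.8 CPM and the carriers' median coefficient of variation at 0.213 to 0.328.

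The alternatives for the family shifts were chosen after seeing the data. The sugar carriers lay between -0.34 and -0.12 in replicate 1 under all 5, between 0.03 (at 10 CPM or more, 8 of 14 above 0) and 0.21 in replicate 2, and between 0.10 (at 10 CPM or more) and 0.48 (records that overlap no other) in replicate 3. Only 7 sugar carriers overlapped no other record, and 3, 4 and 5 of them lay above 0 in replicates 1, 2 and 3. Of all records of at least 1 CPM it was 51.8%, 51.0% and 51.7%. No paired analysis was possible because the libraries form a single group. Depth limits the carriers under 1 CPM, for which no shift is given.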

Other observations

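The study sorted genes into expression clusters named A to E, formed partly on these libraries, so that the clusters are not independent evidence of how carriers behave in them. By gene number, 47 carrier records were found in a cluster. Cluster B held 20 of them among 314 records, and D 10 among 570. Cluster C held 8 among 187, E 7 among 223 and A 2 among 305. Parts of split models were counted singly, and in gene numbers B held 17, D 8, C 8, E 5 and A 2. In cluster B, 19 carriers had at least 1 CPM. Their median deviation was -0.66, 0.48 and 0.28 on the log2 scale in replicates 1, 2 and 3. In replicate 1, 14 of them lay below 0 and 5 above, against 51.8% of all records above 0. The cluster as a whole had -0.12, 0.19 and 0.03. At a mean of 10 CPM or more, 7 carriers remained, with -0.12, 0.20 and -0.09, so that the direction in replicate 3 turned. In replicate 1, 3 of these 7 lay above 0. INDY, sugar transporter 8, the MCT9-like record and SLC13A4 of scaffold00512 were among these carriers of cluster B.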
